A study of Mus musculus with 6 samples.

Results

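The SLC25 family is a set of nuclear genes, most of which encode mitochondrial solute carriers. Its members were taken as every gene of the table whose symbol is Slc25a followed by a number, which gave 44 of 22556 genes. Wild-type mice received angiotensin II (Ang II) from an osmotic minipump under the skin. This peptide hormone raises blood pressure, and it was given at 1000 ng per kg per min before RNA of the heart was sequenced. The 3 groups were the controls, labelled as 0 days of infusion, 7 days of Ang II and 28 days of Ang II, with 2 libraries each and 6 in all. All mice were wild type. The labels give neither the age nor the sex of the mice, nor what the control mice carried, nor which part of the heart was taken. Whether a library is 1 mouse of its own is not stated, so the p-values reflect spread between libraries only, and this spread may be technical. The deposited unit was RPKM, reads scaled to the length of the transcript and to the mapped reads of the library, which allows levels of different genes to be set side by side.

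Most SLC25 carriers sit in the inner mitochondrial membrane, and they share a fold made of similar repeats. Most swap or carry small molecules between the cytosol and the matrix: ADP for ATP, phosphate, dicarboxylates, amino acids, acylcarnitines, nucleotides, cofactors and metals. In heart muscle the ADP/ATP and phosphate carriers supply ATP synthase and export its product, the malate and aspartate carriers bring in reducing equivalents, and the carnitine carrier brings in fatty acids. The uncoupling proteins Ucp1, Ucp2 and Ucp3 belong to the family but have names of their own and did not come under the rule. They were put in the list of genes that work beside the carriers. Their relatives Slc25a14, Slc25a27 and Slc25a30 did come under the rule.

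Of the 44 members, 37 reached a mean of at least 1 RPKM over the 6 libraries and were tested among 11096 genes. The other 7 lay between 0 and 0.424 RPKM in every library. They were the testis-type ADP/ATP carrier Slc25a31, the ATP-Mg/phosphate carrier relative Slc25a41, the glutamate carrier Slc25a18, the oxodicarboxylate carrier Slc25a21, the ornithine carrier Slc25a2, Slc25a43 and Slc25a48. Slc25a48 was listed at 0 in all libraries, and Slc25a41 was above 0 only in 28 day replicate 1, at 0.144 RPKM.

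Slc25a33 and Slc25a34 were the 2 members called lower at both infusion times (limma adjusted p under 0.05). The first is a pyrimidine nucleotide carrier by work on the human protein, and the substrate of the second is not settled. Slc25a22 and Slc25a42 also lay below both controls at both times, but each was called at only 1 of them. The promoters of the 2 members called at both times are shown. They come from the RefSeq table of GRCm38.p6, 250 bases before to 50 bases after the annotated start, on the minus strand at chr4:149774218-149774517 for Slc25a33 and at chr4:141623785-141624084 for Slc25a34. Both genes lie on chromosome 4. Capitals mark a match, on either strand, to the E-box CACGTG, the GABP motif CCGGAAG, the ERR motif TCAAGGTCA or the cyclic AMP element TGACGTCA.
Slc25a33: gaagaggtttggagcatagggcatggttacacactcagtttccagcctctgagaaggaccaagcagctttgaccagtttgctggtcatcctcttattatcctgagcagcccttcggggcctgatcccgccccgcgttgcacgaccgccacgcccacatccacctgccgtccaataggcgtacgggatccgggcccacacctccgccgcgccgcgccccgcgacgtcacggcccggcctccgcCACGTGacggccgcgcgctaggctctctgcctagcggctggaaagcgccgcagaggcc
Slc25a34: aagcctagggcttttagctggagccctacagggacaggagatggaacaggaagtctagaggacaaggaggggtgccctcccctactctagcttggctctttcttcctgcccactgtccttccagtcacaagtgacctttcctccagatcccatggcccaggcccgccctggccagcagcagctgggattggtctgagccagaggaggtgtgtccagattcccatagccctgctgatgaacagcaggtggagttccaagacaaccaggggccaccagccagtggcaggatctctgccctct

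The Slc25a33 window held 1 match, an E-box that begins 8 bases before the annotated start, and the Slc25a34 window held 0 matches to these letters. Promoter windows were found for 34 of the 44 members, 43 windows in all since some genes have several. An E-box occurred in 8 of these 43 windows (18.6%), in 7 genes including Slc25a1, Slc25a13 and Slc25a36, against 7.15% of all 32851 windows. The GABP motif occurred in 6 windows (14%, against 8.86% of all), among them those of Slc25a4, Slc25a3 and Slc25a20. The cyclic AMP element occurred in 2 windows (4.65%, against 1.79%), and the ERR motif in 0 (against 0.423%). The E-box and the cyclic AMP element can overlap in these letters, windows of 1 gene can overlap each other, and a match does not show that a factor binds.

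Relative depth was estimated from the RPKM of genes with few reads, whose usual ratio between libraries follows depth. Set against control replicate 1, it lay between 0.89 and 1.17, with the 7 day libraries the deepest and the 28 day libraries the shallowest. Between 15636 and 16036 genes were above 0 in a library. Over the tested members, the log2 ratio of both replicates had an SD of 0.217 in the 7 day group and 0.199 in the 28 day group, against 0.143 among controls. The 4 atrial markers summed to between 2038 and 3427 RPKM in the infused libraries, against 320.0 RPKM in control replicate 1 and 3017 RPKM in control replicate 2. Control replicate 1 stood apart in this respect, 0 of these markers were called, and the carrier calls lost without that library are named with their values. Ventricular cardiomyocyte markers, all 7 of which were above 0 in every library, summed to between 33977 and 45728 RPKM, as in heart muscle. Of 5 adipocyte markers (sums of 964 to 1334 RPKM) only 3 were tested, and of 5 skeletal muscle markers (1243 to 1541 RPKM) only 1. Of those tested, 0 were called in any comparison. The markers that were not tested had means under 1 RPKM, so nearly all of the skeletal muscle sum came from the 1 tested marker. Among 3 mesothelial markers 1 was called higher at 7 days, with sums of 4.22 and 6.58 RPKM, against 4.93 and 7.22 RPKM in the controls. Ucp1 among the adipocyte markers was at 0 in at least 1 library.

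The level of the family was set by a few carriers. Its summed RPKM was 1.65% and 1.58% of that of all genes in the controls. This share was 1.04% and 1.12% at 7 days, and 1.87% and 1.63% at 28 days, and was not tested. The family sum itself was 5501 and 5502 RPKM in the controls, 5648 and 4873 RPKM at 7 days and 6748 and 6532 RPKM at 28 days. The lower share at 7 days therefore came with a higher sum over all genes, and does not show a matching fall of the family. Slc25a4, the main ADP/ATP carrier of heart and skeletal muscle (ANT1), had 4038 and 4052 RPKM in the control libraries, 4113 and 3516 RPKM at 7 days and 5169 and 4980.2 RPKM at 28 days. It made up between 72.2% and 76.6% of the summed RPKM of the family in each library. The 28 day libraries were the highest for this gene, and the 7 day libraries lay on either side of the controls.

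Slc25a3, the phosphate carrier, came next, with 556 and 555 RPKM in the controls, 593 and 517 RPKM at 7 days and 621 and 665 RPKM at 28 days. Slc25a11, which exchanges 2-oxoglutarate for malate, had 274 and 266 RPKM in the controls, 269 and 232 RPKM at 7 days and 306 and 288 RPKM at 28 days. Both genes were highest at 28 days, with the 28 day libraries above all others. The 8 members with the highest means, which also included Slc25a5, Slc25a20, Slc25a34, Slc25a12 and Slc25a39, held between 95.6% and 96.8% of the family's RPKM. By mean RPKM, 4 members were at or above 100, 14 lay between 10 and 100 and 19 between 1 and 10.

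**Figure D1:**
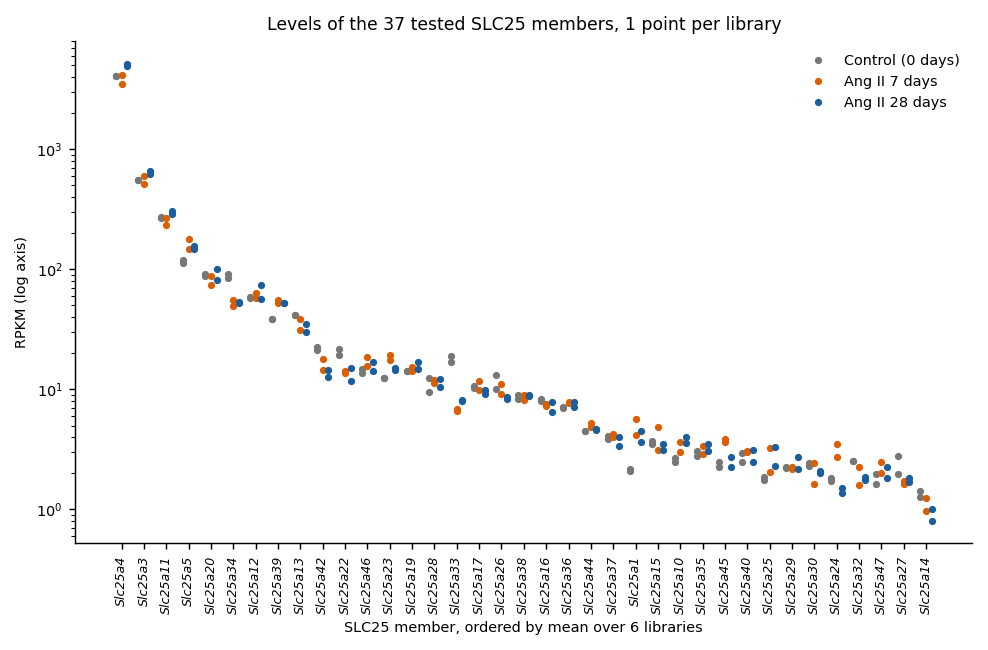
RPKM on a log axis of the 37 tested SLC25 members in each of the 6 libraries, ordered by mean; grey points are controls, orange points 7 days and blue points 28 days of Ang II. Slc25a4 stands above all others, at 4038 and 4052 RPKM in the controls, and the lowest tested member, Slc25a14, has a mean of 1.12 RPKM.

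The first comparison asked how the carriers differed from the controls after 7 days. In limma, a linear model with moderated variances, 6 members rose and 3 fell at an adjusted p under 0.05 over all genes tested. The genes that rose carry adenine nucleotides, citrate or glutathione, or have no settled substrate, and those that fell carry pyrimidine nucleotides or glutamate, or have no settled substrate. The 6 higher members were 16.2% of the 37 tested, against 13.2% of all genes, which is close to the background. The 3 lower members were 8.11%, against 2.27% of all genes. The median log2 change of the tested members was 0.05, against 0.14 for all genes tested. The split of 6 higher and 3 lower was 1 and 4 after median ratio scaling, which moved the median of all genes to -0.02, and 3 and 4 after quantile normalization, which moved it to -0.04. Among calls over all genes, 85.3% were higher with the values as deposited, 61.2% with median ratio scaling and 57% with quantile normalization. Without control replicate 1 only 1 member passed, Slc25a33, and without control replicate 2 only Slc25a33 and Slc25a34 did. Without 7 day replicate 1 there were 4 calls, and without 7 day replicate 2 there were also 4.

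Slc25a33 fell at 7 days, with 6.65 and 6.85 RPKM in the 7 day libraries, against 17 and 19.1 RPKM in the controls. It averaged 6.75 ± 0.139 RPKM at 7 days and 18 ± 1.54 RPKM in the controls (SD, n = 2 each), a log2 change of -1.35 (SE 0.11; limma adjusted p = 0.000871). The groups did not overlap, the 7 day level was 0.392 of the control level on the fitted scale, and the call was kept when each of the 6 libraries was left out in turn. The annotation (GENCODE M21) places the antisense gene Gm13068 over an exon of Slc25a33, and whether reads were counted by strand is not given in the sources used here.

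Slc25a36, the other pyrimidine nucleotide carrier known from human, had 7.64 and 7.89 RPKM at 7 days, against 7.02 and 7.1 RPKM in the controls, a log2 change of 0.13 (limma adjusted p = 0.454). The level of Slc25a33 was 87% and 86.8% of that of Slc25a36 in the 7 day libraries, against 241% and 269% in the controls. Thus Slc25a33 had the higher RPKM of the pair in the controls and the lower at 7 days.

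Slc25a34 fell at 7 days, with 49.4 and 55.6 RPKM, against 91.5 and 84.2 RPKM in the controls, a log2 change of -0.74 (SE 0.10; limma adjusted p = 0.00567). It is among the 8 most abundant carriers of these hearts. Its relative Slc25a35 had 3.37 and 2.89 RPKM at 7 days, against 3.07 and 2.8 RPKM in the controls. Without control replicate 1 the call of Slc25a34 was lost (log2 change -0.68; limma adjusted p = 0.0686).

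Slc25a22, a glutamate carrier in human, fell to 13.8 and 14.1 RPKM at 7 days, against 21.6 and 19.2 RPKM in the controls, a log2 change of -0.53 (SE 0.14; limma adjusted p = 0.0416). The groups did not overlap. It no longer passed if control replicate 1 (adjusted p = 0.251), control replicate 2 (0.123), 7 day replicate 1 (0.141) or 7 day replicate 2 (0.148) was left out, with log2 changes between -0.61 and -0.45, nor with no filter (0.0772) or no trend (0.057).

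Among the carriers of adenine nucleotides, Slc25a5 (ANT2), the ADP/ATP carrier of many dividing and non-muscle cells, rose at 7 days. It had 180.0 and 149 RPKM, against 113 and 119.8 RPKM in the controls, a log2 change of 0.49 (SE 0.12; limma adjusted p = 0.0338). Slc25a4 differed by a log2 change of -0.09 (limma adjusted p = 0.653), which was 0.02 without 7 day replicate 2, and Slc25a3 was at 0.997 of the control level (limma adjusted p = 0.982). The level of Slc25a5 was 4.38% and 4.23% of that of Slc25a4 in the 7 day libraries, against 2.79% and 2.96% in the controls, and these values did not overlap. The call of Slc25a5 did not hold if control replicate 1, control replicate 2 or 7 day replicate 1 was left out (adjusted p = 0.227, 0.14 and 0.0932; log2 change 0.45, 0.54 and 0.36), and it was also lost after median ratio scaling (log2 change 0.32; adjusted p = 0.128), with no filter (0.0632) and with no trend (0.0533). The annotation names 1 pseudogene after Slc25a5, to which reads could be assigned or from which they could come.

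Slc25a23 and Slc25a24 encode carriers that exchange ATP-Mg for phosphate and bind calcium, and both rose at 7 days. Slc25a23 had 17.5 and 19.2 RPKM, against 12.5 and 12.4 RPKM in the controls, a log2 change of 0.54 (SE 0.10; limma adjusted p = 0.0151). Slc25a24 had 2.74 and 3.49 RPKM, against 1.73 and 1.82 RPKM in the controls, a log2 change of 0.66 (SE 0.16; limma adjusted p = 0.0339). The third carrier of this kind, Slc25a25, had 3.26 and 2.05 RPKM at 7 days, against 1.88 and 1.76 RPKM in the controls, and did not pass (log2 change 0.42; limma adjusted p = 0.25). Slc25a23 did not pass if control replicate 1, control replicate 2 or 7 day replicate 2 was left out (adjusted p = 0.119, 0.105 and 0.0913). The call of Slc25a24 was lost without control replicate 1, control replicate 2, 7 day replicate 1 or 7 day replicate 2 (0.188, 0.135, 0.0526 and 0.167). Both were lost after median ratio scaling (0.058 and 0.0845), and Slc25a24 also after quantile normalization (0.0931) and with no filter (0.0688). An antisense gene, Gm17168, lies over an exon of Slc25a23 in the annotation.

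Slc25a39, needed for glutathione in mitochondria, rose to 52.7 and 55.7 RPKM at 7 days, against 38.6 and 38.4 RPKM in the controls (log2 change 0.49, SE 0.09; limma adjusted p = 0.0155). Its relative Slc25a40 lay far lower, at 3.03 and 3.07 RPKM at 7 days, against 2.47 and 2.98 RPKM in the controls, and did not pass (log2 change 0.14; limma adjusted p = 0.56). The groups of Slc25a39 did not overlap. It did not pass if control replicate 1, control replicate 2 or 7 day replicate 2 was left out (adjusted p = 0.131, 0.116 and 0.0806), with median ratio scaling (0.0732) and with quantile normalization (0.0685).

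Slc25a1, the citrate carrier that supplies the cytosol with acetyl groups for lipid synthesis, had the largest increase of the tested members at 7 days. It had 5.65 and 4.14 RPKM, against 2.18 and 2.11 RPKM in the controls, a log2 change of 1.01 (SE 0.17; limma adjusted p = 0.0112). Slc25a10, the dicarboxylate carrier, had 3.64 and 3 RPKM at 7 days, against 2.66 and 2.47 RPKM in the controls, and did not pass (log2 change 0.31; limma adjusted p = 0.176). Slc25a45, a member whose substrate is not settled, rose to 3.68 and 3.83 RPKM, against 2.25 and 2.49 RPKM in the controls (log2 change 0.57, SE 0.14; limma adjusted p = 0.0378). Slc25a1 did not pass if control replicate 1, control replicate 2 or 7 day replicate 1 was left out (adjusted p = 0.0709, 0.0682 and 0.0553). The call of Slc25a45 was lost without control replicate 1, control replicate 2, 7 day replicate 1 or 7 day replicate 2 (0.226, 0.131, 0.114 and 0.157), and with median ratio scaling (0.0908), quantile normalization (0.0931) or no filter (0.0767).

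Markers of several other cell types were also called higher at 7 days, when 13.2% of all genes were. The summed RPKM of 7 fibroblast markers was 1104 and 1209 at 7 days, against 480.2 and 492 in the controls, with 5 of 7 called higher. Of 6 macrophage and monocyte markers, 6 were called higher, with sums of 321 and 341 RPKM at 7 days, against 184 and 199 RPKM in the controls. All 5 proliferation markers were called higher, with sums of 14 and 21.9 RPKM, against 1.88 and 2.07 RPKM. Among 5 endothelial markers 3 were called higher (209 and 249 RPKM, against 154 and 146 RPKM), and among 4 smooth muscle markers 2 (187 and 129 RPKM, against 61.5 and 80 RPKM). None of these markers was at 0 in any library. Of the 7 ventricular cardiomyocyte markers 0 were called at 7 days, with sums of 42351 and 33977 RPKM, against 37699.5 and 36884 RPKM. The part of these cell types in the carrier changes was not tested, and in heart RNA fewer cells of a type and less RNA per cell cannot be told apart.

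**Figure D2:**
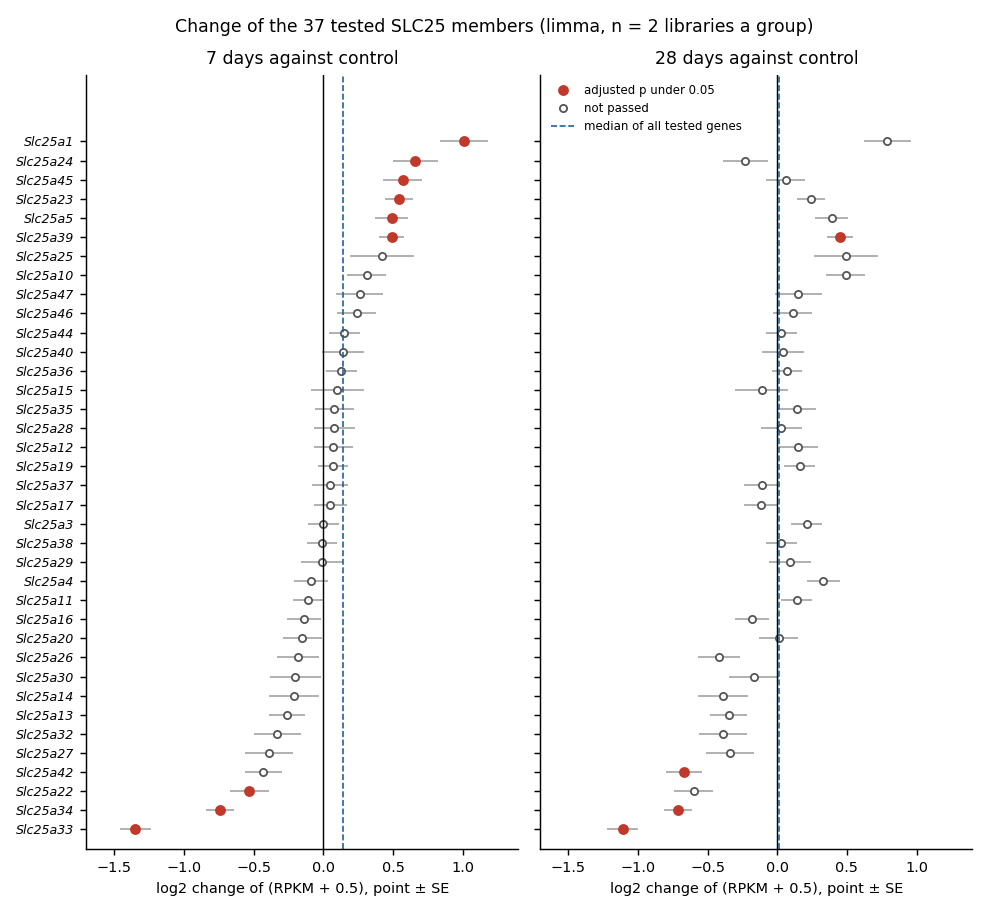
Log2 change of each of the 37 tested SLC25 members at 7 days (left) and 28 days (right) against the controls, with bars of 1 SE (n = 2 libraries a group); filled points passed at an adjusted p under 0.05 and the dashed line is the median of all tested genes. Slc25a33 and Slc25a34 lie lowest on both sides, and 6 members pass to the right at 7 days, against 1 at 28 days.

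The carriers that serve the malate-aspartate shuttle, fatty acid entry and most cofactors did not pass at 7 days. Slc25a12 and Slc25a13, both aspartate/glutamate carriers, had log2 changes of 0.07 and -0.26 (limma adjusted p = 0.786 and 0.232). The first of these was -0.10 with median ratio scaling and -0.09 with quantile normalization. Slc25a13 had 38.4 and 31 RPKM at 7 days, against 41.5 and 41.3 RPKM in the controls. The carnitine/acylcarnitine carrier Slc25a20 showed a log2 change of -0.15 (limma adjusted p = 0.502) and Slc25a11 of -0.11 (limma adjusted p = 0.528).

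By substrate, 3 of 6 tested carriers of adenine nucleotides and phosphate rose and 0 fell at 7 days, and 1 of 3 carriers of di- and tricarboxylates rose, beside 13.2% higher and 2.27% lower over all genes. The 3 of 6 became 0 of 6 with median ratio scaling and 2 of 6 with quantile normalization. Of 8 tested carriers of amino acids and carnitine, 1 fell. Of 12 carriers of cofactors, nucleotides, glutathione and iron, 1 rose and 1 fell. Slc25a42, in human also a carrier of adenine nucleotides, was counted among these 12 and did not pass (log2 change -0.43, limma adjusted p = 0.0737). The mitoferrins Slc25a28 and Slc25a37, which import iron, had log2 changes of 0.08 and 0.05. The 3 uncoupling protein relatives Slc25a14, Slc25a27 and Slc25a30 had log2 changes between -0.39 and -0.20, and 0 of them passed, also at an unadjusted p under 0.05. Of the other 5 tested members, 1 rose and 1 fell. Groups of libraries did not overlap for 14 members that were higher at 7 days and 10 that were lower, or 37.8% and 27% of the tested members, against 48.6% and 16.1% of all genes. At an unadjusted p under 0.05, 6 members were higher and 4 lower (16.2% and 10.8%, against 26.5% and 5.66% of all genes). With the fold threshold of the series' design text, more than 2.0 at this time, 1 was higher, Slc25a1, and 1 lower, Slc25a33 (against 3.48% and 0.532% of all genes).

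The second comparison asked how the carriers differed from the controls after 28 days. Slc25a33, Slc25a34 and Slc25a42 fell and Slc25a39 rose, and the other tested members did not pass. The 3 lower members were 8.11% of those tested, against 1.54% of all genes, and the 1 higher member was 2.7%, against 2.87% of all genes. The median log2 change of the tested members was 0.03, against 0.01 for all genes. The split of 1 higher and 3 lower was the same after median ratio scaling and was 0 and 3 after quantile normalization. Without control replicate 1 or control replicate 2 only Slc25a33 passed, so there was 1 call in each. Without 28 day replicate 2 or 7 day replicate 1 there were 2 calls, Slc25a33 and Slc25a34.

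Slc25a33 had 8.01 and 8.17 RPKM at 28 days, against 17 and 19.1 RPKM in the controls, a log2 change of -1.11 (SE 0.11; limma adjusted p = 0.00563). The call was kept when each of the 6 libraries was left out in turn, with log2 changes between -1.19 and -1.02. Slc25a34 had 52.9 and 53.7 RPKM at 28 days, against 91.5 and 84.2 RPKM in the controls, a log2 change of -0.71 (SE 0.10; limma adjusted p = 0.0183). Leaving out control replicate 1 (log2 change -0.65; adjusted p = 0.19) or control replicate 2 (-0.77; 0.0815) ended this call, as did testing with no filter (-0.71; 0.0584). Since the 2 infusion times share the control libraries, their changes are given side by side and not as separate support.

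Slc25a42, in human a carrier of coenzyme A and adenine nucleotides, fell at 28 days. It had 14.5 and 12.7 RPKM, against 22.7 and 21.2 RPKM in the controls, a log2 change of -0.67 (SE 0.13; limma adjusted p = 0.041). At 7 days it had 18 and 14.6 RPKM and did not pass (log2 change -0.43; limma adjusted p = 0.0737), although it did after median ratio scaling (-0.59; adjusted p = 0.04) and quantile normalization (-0.61; 0.0328). The 28 day call was lost whichever library was left out. The adjusted p was 0.284 without control replicate 1, 0.159 without control replicate 2, 0.0515 without 28 day replicate 1 and 0.104 without 28 day replicate 2. Without 7 day replicate 1 or 2 it was 0.0529 and 0.0525 at the same log2 change, so that only the shared spread and the adjustment differed. It was 0.103 with no filter, 0.0606 with no trend and 0.0533 with only the 2 groups compared.

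Slc25a39 had 52.9 RPKM in both 28 day libraries, against 38.6 and 38.4 RPKM in the controls, a log2 change of 0.45 (SE 0.09; limma adjusted p = 0.0417). Slc25a1 had larger changes at both times (log2 change 1.01 and 0.79) but missed the threshold at 28 days (limma adjusted p = 0.0529). Slc25a39 was the 1 member called higher at both times. The 28 day call was likewise lost whichever library was left out, with an adjusted p of 0.305 without control replicate 1, 0.236 without control replicate 2, 0.07 and 0.0789 without 28 day replicates 1 and 2, and 0.0621 and 0.0623 without 7 day replicates 1 and 2. After quantile normalization the log2 change was 0.34 (adjusted p = 0.0843). The call was also lost with no filter (0.0711), no trend (0.0735) or only the 2 groups compared (0.0628).

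Several members lay outside the range of the controls at 28 days without passing. Slc25a4 showed a log2 change of 0.33 (SE 0.12; limma adjusted p = 0.171) and passed without 7 day replicate 2, at the same log2 change (adjusted p = 0.0481). Slc25a1 had 4.51 and 3.65 RPKM at 28 days, against 2.18 and 2.11 RPKM in the controls (log2 change 0.79; limma adjusted p = 0.0529), and passed with a pseudocount of 0.1 (0.89; 0.0467). Slc25a22 had 15 and 11.7 RPKM, against 21.6 and 19.2 RPKM in the controls (log2 change -0.60; limma adjusted p = 0.0576), and passed without 28 day replicate 1 (-0.77; 0.0326) and among genes with a mean of at least 5 RPKM (-0.60; 0.0472). Slc25a5 had 157 and 149 RPKM, against 113 and 119.8 RPKM in the controls (log2 change 0.39; limma adjusted p = 0.115). Slc25a10 showed a log2 change of 0.49 (limma adjusted p = 0.102) and Slc25a25 of 0.49 (limma adjusted p = 0.256). Slc25a26, which carries S-adenosylmethionine, showed a log2 change of -0.42 (limma adjusted p = 0.169).

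The main carriers of the malate-aspartate shuttle and of fatty acid entry did not pass at 28 days. Slc25a12 had 73.5 and 56.6 RPKM, against 57.3 and 58.5 RPKM in the controls, a spread between the 28 day libraries that was wider than the difference. Slc25a13 had 35 and 29.9 RPKM, against 41.5 and 41.3 RPKM in the controls (log2 change -0.35; limma adjusted p = 0.188). Its level was 47.6% and 52.9% of that of Slc25a12 at 28 days, against 72.4% and 70.5% in the controls. At 7 days this ratio was 59.8% and 54.1%. Slc25a20 had a log2 change of 0.01, which turned below 0 with median ratio scaling (-0.01) or quantile normalization (-0.10), and Slc25a3 had 0.21, which turned to -0.08 with quantile normalization. Slc25a11 had 0.14 (limma adjusted p = 0.49), and its exons overlap those of Rnf167 on the opposite strand.

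Of the 37 tested members, 12 were higher and 13 lower at 28 days with no overlap between the groups, or 32.4% and 35.1%, against 28.8% and 25.8% of all genes. At an unadjusted p under 0.05, 6 were higher and 6 lower (16.2% each), against 12.8% and 9.32% of all genes. With a fold of more than 1.5 added, as in that design text, Slc25a1 alone was higher and 4 members were lower, namely Slc25a22, Slc25a33, Slc25a34 and Slc25a42, against 4.35% and 2.93% of all genes. The 5 proliferation markers summed to 1.7 and 2.17 RPKM at 28 days, against 1.88 and 2.07 RPKM in the controls, and the 6 macrophage and monocyte markers to 162 and 113 RPKM, against 184 and 199 RPKM. The 7 fibroblast markers summed to 560.2 and 513 RPKM, against 480.2 and 492 RPKM, with 1 called higher. The 5 endothelial markers summed to 159 and 191 RPKM, against 154 and 146 RPKM, with 1 called higher, and the 4 smooth muscle markers to 84.1 and 105 RPKM, against 61.5 and 80 RPKM, with 0 called. The ventricular cardiomyocyte markers summed to 42742 and 45728 RPKM, against 37699.5 and 36884 RPKM, with 1 of 7 called higher. Over all genes 2.87% were called higher at 28 days. The part of these cells in the carrier changes was not tested.

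**Figure D3:**
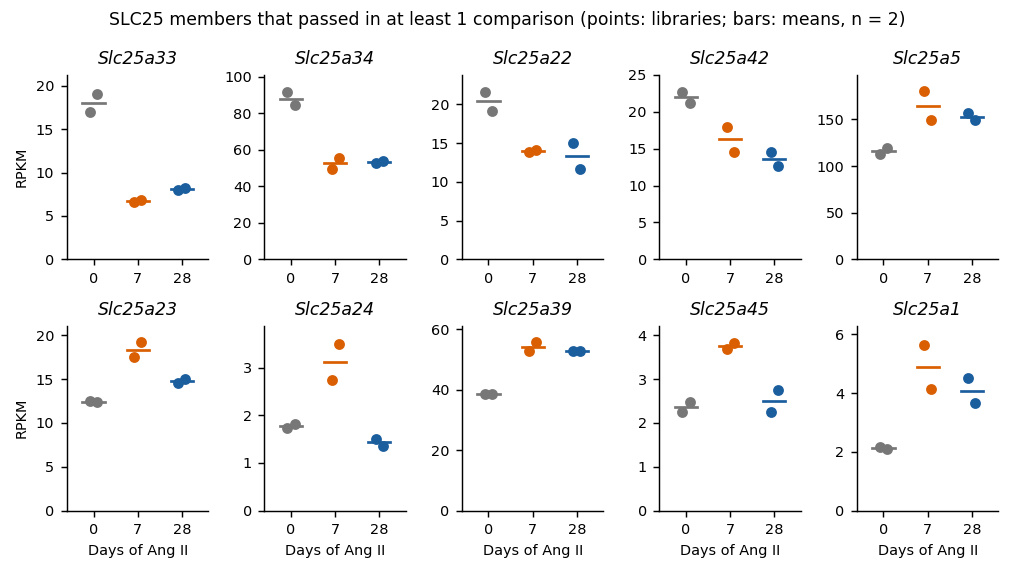
RPKM in each library, against days of Ang II, of the 10 SLC25 members that passed in at least 1 comparison; points are libraries and bars are group means (n = 2), with axes from 0. Slc25a33 and Slc25a34 lie below the controls at both times, Slc25a39 above them at both times, and Slc25a24 and Slc25a45 are high at 7 days.

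The third comparison set 28 days against 7 days. Slc25a24 fell, with 1.51 and 1.36 RPKM at 28 days, against 2.74 and 3.49 RPKM at 7 days, a log2 change of -0.89 (SE 0.16; limma adjusted p = 0.0278). Both 28 day libraries also lay below both controls, which had 1.73 and 1.82 RPKM, but that difference did not pass (log2 change -0.23; limma adjusted p = 0.43). The 1 lower member was 2.7% of those tested, against 4.26% of all genes. No member passed higher at 28 days, where limma called 0.406% of all genes, and at an unadjusted p under 0.05 there was 1, Slc25a4, and 3 lower, Slc25a23, Slc25a24 and Slc25a45 (against 3% and 19.1% of all genes). With a fold over 1.5 added there were 0 higher and 1 lower, Slc25a24 (against 0.883% and 6.86% of all genes). The libraries did not overlap for 4 members that were higher and 7 that were lower at 28 days, against 9.12% and 41.2% of all genes. The call of Slc25a24 was lost whichever library was left out, with adjusted p between 0.0544 without 28 day replicate 2 and 0.181 without 7 day replicate 2. It was 0.0664 without 28 day replicate 1, 0.0654 without 7 day replicate 1, and 0.0587 and 0.0592 without control replicates 1 and 2. With median ratio scaling or quantile normalization the change did not pass either (log2 change -0.76 and -0.70; adjusted p = 0.0587 and 0.079), nor with no filter (0.0716) or only the 2 groups compared (0.0582).

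Its level was 10.4% and 9.11% of that of Slc25a23 at 28 days, against 15.6% and 18.2% at 7 days. Slc25a23 had 14.6 and 15 RPKM at 28 days, against 17.5 and 19.2 RPKM at 7 days, and did not pass (log2 change -0.30; limma adjusted p = 0.144). Slc25a45 had 2.24 and 2.75 RPKM at 28 days, against 3.68 and 3.83 RPKM at 7 days (log2 change -0.51; limma adjusted p = 0.0949). Slc25a4 showed a log2 change of 0.42 (SE 0.12; limma adjusted p = 0.105) and passed without 7 day replicate 1 (0.53; adjusted p = 0.0419). Slc25a33 showed a log2 change of 0.25 (limma adjusted p = 0.238), with both 28 day libraries above both 7 day libraries, and Slc25a34 of 0.02. The level of Slc25a5 was 3.03% and 2.98% of that of Slc25a4 at 28 days, against 4.38% and 4.23% at 7 days. Among the other abundant carriers the log2 change was 0.25 for Slc25a11 (limma adjusted p = 0.234), 0.22 for Slc25a3 (0.293), 0.16 for Slc25a20 (0.544), 0.09 for Slc25a12 (0.747), -0.10 for Slc25a5 (0.655) and -0.09 for Slc25a13 (0.732). Slc25a42 had -0.25 (limma adjusted p = 0.329). Those of Slc25a5 and Slc25a13 were 0.05 and 0.06 after median ratio scaling. The macrophage and monocyte markers were called lower at 28 than at 7 days in 6 of 6, against 4.26% of all genes. The fibroblast markers were called lower in 5 of 7 and the proliferation markers in 5 of 5. The part of these markers' cells in the carrier changes was not tested. The median of the tested members was -0.05, against -0.12 for all genes.

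**Figure D4:**
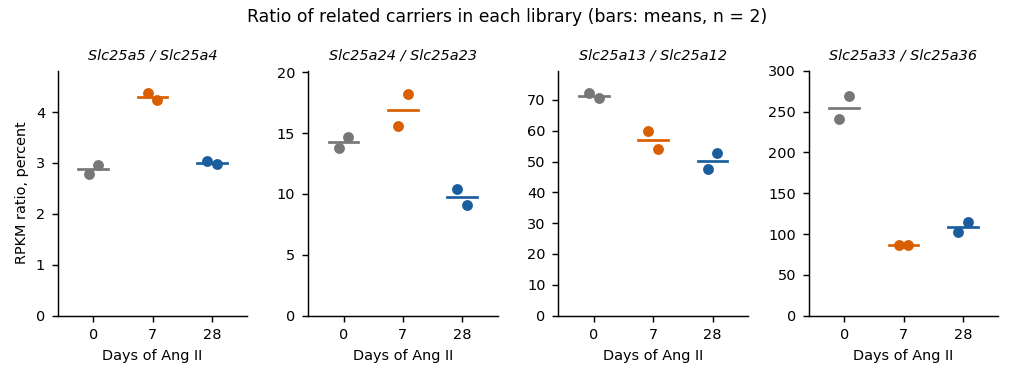
RPKM of one carrier as a percentage of a related carrier in each library, against days of Ang II; points are libraries and bars are means (n = 2), with no test. Slc25a5 relative to Slc25a4 is highest in the 7 day libraries, at 4.38% and 4.23%, and Slc25a33 relative to Slc25a36 is at most 115% with Ang II, against 241% and 269% in the controls.

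Genes that work beside the carriers were described with a list of 51 other channels and carriers of mitochondria, parts of the import route of carriers, and shuttle enzymes, of which 50 were in the table and 48 were tested. At 7 days 3 rose (6.25%, against 13.2% of all genes) and 0 fell in limma. At an unadjusted p under 0.05, 8 were higher and 2 lower (16.7% and 4.17%, against 26.5% and 5.66% of all genes). With median ratio scaling 2 were higher and 1 lower, as Mtch1 was lost and Ghitm gained, and with quantile normalization 3 were higher and 2 lower, with Ghitm and Ucp3 gained. The 3 were Tspo, a cholesterol-binding protein of the outer membrane, at 56.2 and 60.9 RPKM, against 28.7 and 26.5 RPKM in the controls (log2 change 1.07; limma adjusted p = 0.00154), Sfxn3, a sideroflexin (0.80; 0.0178), and Mtch1, an outer membrane relative of the carriers (0.51; 0.0138). Of 11 tested genes of the import route and 14 shuttle enzymes, 0 passed at 7 days. Those enzymes include Got2 and Mdh2, which work with Slc25a12 and Slc25a13, and Cpt2, which works with Slc25a20.

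At 28 days 1 gene of the list rose and 1 fell (2.08% each, against 2.87% and 1.54% of all genes). Tomm20, an import receptor, had 34.2 and 33.8 RPKM, against 23.1 and 22.4 RPKM in the controls (log2 change 0.57; limma adjusted p = 0.0255). Ucp3, an uncoupling protein of muscle, had 12.8 and 7.72 RPKM, against 45.2 and 40.6 RPKM in the controls (log2 change -2.05; limma adjusted p = 0.00991). At 28 against 7 days 0 rose and 2 fell (4.17%, against 4.26% of all genes), namely Tspo (log2 change -0.80; limma adjusted p = 0.00966) and Ucp3 (-1.24; 0.0384). The median log2 change of the tested list was 0.06 at 7 days, 0.04 at 28 days and -0.01 between them. The 7 day call of Tspo was kept whichever of the 6 libraries was left out. Mtch1 and Sfxn3 did not pass if control replicate 1, control replicate 2 or 7 day replicate 2 was left out, nor Sfxn3 if 7 day replicate 1 was, with adjusted p between 0.0702 and 0.141. The call of Tomm20 was lost without control replicate 1, control replicate 2, 28 day replicate 1 or 28 day replicate 2 (adjusted p = 0.211, 0.17, 0.0528 and 0.0508), and the 28 day call of Ucp3 without control replicate 1 (adjusted p = 0.0783). At 28 against 7 days, Tspo was lost without 7 day replicate 2 (adjusted p = 0.0859), and Ucp3 without any library but 28 day replicate 1 (0.0565 to 0.161).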

How the data were processed

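Heart RNA of 6 mouse libraries, 2 a group, was sequenced on an Illumina HiSeq instrument, per the labels' protocols. The authors deposited 1 table of RPKM values for 22556 genes, of which 4971 were at 0 in every library. Per the submitters' processing notes HTSeq, DESeq2, Bowtie 0.12.9 and TopHat2 2.0.12 were used, with mm8 and mm9 named as builds. The annotation, the tool that made the RPKM values and the use of strand: not given in the sources used here. No read totals come with RPKM, so depth is known only relative to another library, and counting intervals are not given.

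From that table log2(RPKM + 0.5) was tested with limma 3.58.1 in R 4.3.3 (group means of the 3 groups, mean-variance trend, 3 residual degrees of freedom and a prior of 4.21), over 11096 genes with a mean of at least 1 RPKM. P-values were adjusted by Benjamini-Hochberg over all of these genes, and an adjusted p under 0.05 is called. Changes on this scale understate those of low genes. An exact permutation test of 2 against 2 libraries cannot give a two-sided p below 0.333 and was not used. The fit was also run on simulated data drawn with its own fitted spread, which cannot show how it does with the scaling of these libraries. Alternatives were other pseudocounts (0.1 and 1), no filter, a mean of at least 5 RPKM, quantile normalization, median ratio scaling, a fit of only the 2 groups compared, no trend, the replicate number as a block, the fold thresholds of the series' design text (2.0 at 7 days, 1.5 at 28 days) with an unadjusted p under 0.05, and leaving out each library, with the spread of the lone library assumed to be that of the other groups. Members that passed in any comparison, the 4 highest and 4 lowest log2 changes of each comparison, the 8 highest means and 8 fixed carriers of energy metabolism are named, and the called partner genes. Other members, among them relatives set beside a called carrier, were named after their values were seen. The members and lists were chosen with earlier results of these data known. Genes were matched to GENCODE M21 and RefSeq (both GRCm38) by symbol, which differs from the submitters' builds, so the coordinates given belong to the RefSeq promoters alone. Figures were drawn with matplotlib 3.10.9 in Python 3.11.15. Erythroid markers are not reported here.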

Additional observations from a re-analysis of the deposited data

Results flagged for a closer look

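Slc25a24, an ATP-Mg/phosphate carrier, differed between the 2 infusion times. It had 1.51 and 1.36 RPKM at 28 days, against 2.74 and 3.49 RPKM at 7 days, a log2 change of -0.89 (limma adjusted p = 0.0278), and this is the test of the difference between the times. Against the controls its log2 change was 0.66 at 7 days, with both libraries above both controls, and -0.23 at 28 days, with both libraries below both controls. That the 28 day libraries lie on the other side of the controls did not pass in limma (adjusted p = 0.43). The call between the times was lost whichever library was left out, with adjusted p between 0.0544 and 0.181 (0.181 without 7 day replicate 2). With 2 libraries a group, single libraries that stand apart could not be tested.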

How the results depend on the processing

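The 9 calls of SLC25 members at 7 days became 5 with no filter, 5 with median ratio scaling (4 of the 9, and Slc25a42), 2 with the fold thresholds and between 1 and 9 with a library left out (1 without control replicate 1). The 4 called at 28 days became 1 with no filter, 2 with no trend, 2 with only the 2 groups compared and 1 to 3 with a library left out, and 5 with a pseudocount of 0.1 (Slc25a1 gained), a mean of at least 5 RPKM (Slc25a22 gained) or the fold thresholds (both gained, Slc25a39 lost). The 1 call between 28 and 7 days became 0 with no filter, a mean of at least 5 RPKM (where Slc25a24 was not tested), median ratio scaling, quantile normalization or only the 2 groups compared, and 0 to 1 with a library left out; the 1 is Slc25a4 without 7 day replicate 1. Of partner genes, the 3 at 7 days became 5 with quantile normalization, 5 with only the 2 groups compared, 1 with the fold thresholds and 1 to 5 with a library left out. The 2 at 28 days became 0 with no filter, 1 with the fold thresholds and 0 to 2 with a library left out. The 2 between the times became 1 with no filter, median ratio scaling, quantile normalization, no trend or only the 2 groups compared, and 0 to 3 with a library left out. The causes were not tested.

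With the replicate block there were 9, 4 and 1 member calls and 4, 2 and 2 partner calls in the same order. The block lost Slc25a39 (adjusted p = 0.0709) and gained Slc25a1 (0.0448) at 28 days. Same-numbered libraries deviated together with correlations of 0.149, -0.0193 and -0.0139, so the numbers were not taken as pairs.

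Slc25a33 kept its direction and call at both times in all 6 fits without a library and the 9 other settings in which it was refitted. Of 795 refitted log2 changes of 18 named members, 685 kept direction and side of the threshold, 72 lost a call, 8 gained one and 30 turned sign, none of them a called value. With median ratio scaling and quantile normalization, the 7 day log2 change of Slc25a12 became -0.10 and -0.09 and the 28 day change of Slc25a20 -0.01 and -0.10. Between the times those of Slc25a13 became 0.06 and 0.01, of Slc25a22 0.08 and 0.05, and of Slc25a39 0.12 and 0.03. Slc25a3 at 28 days became -0.08 with quantile normalization, and Slc25a5 between the times 0.05 with median ratio scaling. With a library left out, log2 changes at 7 days ranged from -0.01 to 0.15 for Slc25a12, from -0.10 to 0.09 for Slc25a3 and from -0.20 to 0.02 for Slc25a4. At 28 days they ranged from -0.03 to 0.34 for Slc25a12, from -0.15 to 0.17 for Slc25a20 and from -0.07 to 0.18 for Slc25a45. Between the times they ranged from -0.10 to 0.28 for Slc25a12, -0.24 to 0.06 for Slc25a13, -0.01 to 0.32 for Slc25a20, -0.24 to 0.10 for Slc25a22, -0.20 to 0.35 for Slc25a25, -0.06 to 0.11 for Slc25a34, -0.08 to 0.00 for Slc25a39 and -0.24 to 0.04 for Slc25a5.

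With 2 libraries a group, members under about 1 RPKM were not tested, and a value that misses the threshold does not show that a carrier did not change.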

Other observations

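Some carriers of the family stand in the table under older names and were outside the symbol rule. Mcart1, now Slc25a51, a carrier of NAD, had 12.3 and 13.4 RPKM at 28 days and 13.7 RPKM in both 7 day libraries, against 14.2 and 13.8 RPKM in the controls. It did not pass in limma at 28 days (log2 change -0.12; adjusted p = 0.531), at 7 days (-0.03; 0.873) or between them (-0.09; 0.643). Mcart6, now Slc25a53, lay between 0.0473 and 0.195 RPKM and was not tested, and 4930443G12Rik, now Slc25a54, was listed at 0 in every library.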
